A study of Mus musculus with 8 samples.

Results

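Tetraspanins are small proteins that cross the cell membrane several times and gather integrins, immunoglobulin-like receptors, membrane proteases and MHC class II molecules into patches called tetraspanin-enriched microdomains. In monocytes and macrophages they are known for roles in adhesion, migration and cell fusion, and CD9, CD63 and CD81 are the usual surface proteins of exosomes, the vesicles released from late endosomes. The 7 genes described here are the CD-named tetraspanins Cd9, Cd37, Cd53, Cd63, Cd81, Cd82 and Cd151, taken as every probe that the scanner files name after one of them, which gave 10 of 41174 probes. All 7 genes passed the filter on dim probes, among 18266 tested genes. The members were chosen by a rule written with their measured spleen and blood values in the authors' table in view, so those values are given as a description, without a test.

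The series compared Ly-6C-high monocytes of the spleen, where such cells form a reservoir, with their counterparts in blood. The 4 spleen and 4 blood samples came from a group of 4 female C57BL/6 mice, 8 to 12 weeks old, fed chow, healthy and untreated, with both tissues taken from each mouse. For each sample 1000 cells were sorted on high CD11b and Ly-6C, with low staining for T cell, B cell, NK cell and neutrophil antigens, a macrophage antigen, I-Ab and CD11c, and 5 ng of RNA was amplified for a 1-colour array. The labels do not tie sample numbers to mice. Spleen and blood were therefore set against each other without pairing. The p-values rest only on the spread between these samples and treat them as independent, although both tissues came from the same mice. Values are log2 values of the authors' table unless the scanner files are named, and a level of 6.8, from which probes were well above background, is called the background level. For 3 blood samples, numbers 1 to 3, the scanner files hold other arrays than the table's columns (rank correlations of 0.842, 0.852 and 0.872 with the scanner's median signal, against 1 for the other 5 samples), so the members are also given from the scanner files. The monocyte list had 9 of 12 genes tested, with medians of 12.10 to 12.89 in spleen and 12.41 to 13.08 in blood. Itgam, which encodes CD11b, averaged 12.11 in both tissues.

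The array reads each gene through probes of 60 bases, and 4 of them are shown because they stand for the widest difference (Cd63), the steadiest level (Cd53) and the gene read by 2 probes of its own mRNA (Cd37). All are 5′ to 3′ as the scanner files give them. On mm7, the Cd63 probe lies on the plus strand at chr10:128413370-128413583 and the Cd53 probe on the minus strand at chr3:106580416-106581510. These spans of 214 and 1095 bases are longer than the probe, so both cross an exon junction. The Cd37 probes lie on the minus strand at chr7:41411214-41411273 and chr7:41411138-41411197 and do not overlap.
Cd63 probe: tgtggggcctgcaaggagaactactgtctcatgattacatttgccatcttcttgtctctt
Cd53 probe: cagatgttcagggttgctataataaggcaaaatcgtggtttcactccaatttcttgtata
Cd37 first probe: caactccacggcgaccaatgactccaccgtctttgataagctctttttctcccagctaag
Cd37 second probe: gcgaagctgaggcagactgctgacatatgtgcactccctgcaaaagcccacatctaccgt

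The other members also lie on known positions of mm7. Cd81 was read on chromosome 7 from 139495112 to 139495171 and Cd151 on the same chromosome from 137888602 to 137888662, both on the plus strand. Cd82 was read on chromosome 2 from 93270127 to 93270186 and Cd9 on chromosome 6 from 125482335 to 125482394, both on the minus strand. Another pair of probes that the files name Cd9 came from cDNA clones and not from its mRNA record. The first lies 16584 bases away on the same strand and reached the background level on 3 of 8 arrays. The second lies 35697 bases away on the opposite strand and reached it on none, with values of 6.04 to 6.32 in spleen and 6.04 to 6.23 in blood. Neither passed the filter, so Cd9 rests on its mRNA probe. Apart from these positions, the probes were not annotated to exons here.

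The 2 members with the widest difference between the tissues were Cd63 and Cd81, both higher in spleen. Cd63 encodes the tetraspanin of late endosomes, lysosomes and exosomes, which cycles between these compartments and the cell surface. It had 9.82, 10.04, 11.17 and 10.50 in spleen samples 1 to 4, against 8.92, 7.94, 9.72 and 8.31 in blood samples 1 to 4. All 4 spleen samples lay above all 4 blood samples, though the lowest spleen value and the highest blood value nearly met. Cd63 averaged 10.38 ± 0.59 in spleen and 8.72 ± 0.78 in blood (SD, n = 4 each), a difference of 1.66 ± 0.43 (SE), or 3.16-fold. In bulk samples, fewer cells of a type and less RNA per cell cannot be told apart.

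Cd81 encodes a tetraspanin of the cell surface and of exosomes that on macrophages, together with CD9, restrains fusion into giant cells. It had 8.40, 9.19, 8.09 and 9.95 in spleen samples 1 to 4, against 7.26, 6.86, 8.22 and 7.07 in blood samples 1 to 4. Spleen was higher in 15 of the 16 pairs of a spleen and a blood sample. The exception was spleen 3 against blood 3. Cd81 averaged 8.91 ± 0.84 in spleen and 7.35 ± 0.60 in blood (SD, n = 4 each), a difference of 1.56 ± 0.44 (SE), or 2.94-fold. Blood 2 lay 0.06 above the background level.

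**Figure D1:**
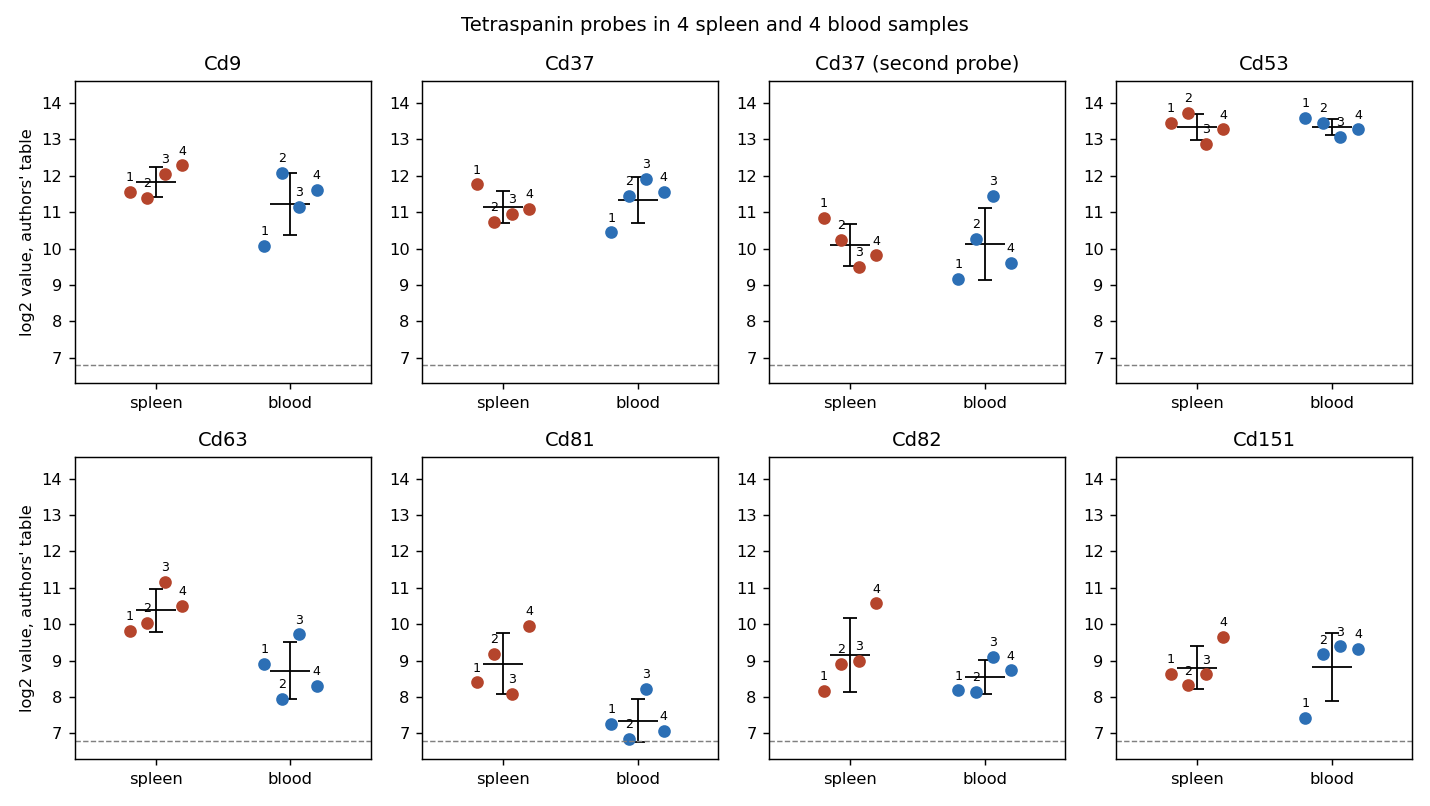
Log2 values in the authors' table for the 8 tetraspanin probes that passed the filter, with spleen left and blood right. Points are samples with their numbers, horizontal marks and bars are the mean and SD (n = 4), and the dashed line is the background level of 6.8. The 4 spleen points of Cd63 stand above its 4 blood points, blood 1 is low for Cd9, Cd37 and Cd151, and spleen 4 is high for Cd82.

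Cd9 and Cd82 had smaller differences that rested on 1 array each. Cd9, which is abundant on platelets and takes part in adhesion and cell fusion, had 11.55, 11.40, 12.04 and 12.28 in spleen samples 1 to 4, against 10.07, 12.08, 11.15 and 11.60 in blood samples 1 to 4. The tissues overlapped, and only blood 1 stood well below the rest. The difference was 0.59 ± 0.42 (SE), and 0.21 without blood 1. Cd82, a tetraspanin that holds back cell migration and was first known as a suppressor of metastasis, had 8.17, 8.90, 9.0 and 10.57 in spleen samples 1 to 4, against 8.18, 8.15, 9.11 and 8.73 in blood samples 1 to 4. Spleen 4 alone lay above the blood samples. The difference of Cd82 was 0.62 ± 0.48 (SE), and 0.14 without spleen 4.

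Cd53 and Cd37, tetraspanins restricted to blood cells, differed least of the members from tissue to tissue relative to their spread, together with Cd151. Cd53 had 13.46, 13.72, 12.87 and 13.27 in spleen samples 1 to 4, against 13.58, 13.44, 13.07 and 13.27 in blood samples 1 to 4. Its 8 values spanned 0.85, the narrowest range of the 7 members, and the difference was -0.01 ± 0.24 (SE, 95% interval -0.55 to 0.53). Cd37, known as a partner of the fungal receptor dectin-1, had 11.76, 10.74, 10.95 and 11.08 on its first probe in spleen samples 1 to 4, against 10.44, 11.45, 11.92 and 11.55 in blood samples 1 to 4. The groups overlapped, with blood 1 the lowest and blood 3 the highest of all 8. The difference was -0.21 ± 0.35 (SE) on the first probe and -0.02 ± 0.49 on the second, whose values were also lowest in blood 1 and highest in blood 3.

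Cd151, the partner of laminin-binding integrins, had 8.63, 8.32, 8.62 and 9.66 in spleen samples 1 to 4, against 7.42, 9.17, 9.39 and 9.31 in blood samples 1 to 4. Blood 1 was the lowest and spleen 4 the highest of the 8. The difference was -0.02 ± 0.47 (SE), while it was -0.48 without blood 1 and -0.77 without both blood 1 and spleen 4. In that last comparison, added after the values were seen, Cd63 stayed 1.69 and Cd81 1.18 higher in spleen, while Cd9 came to 0.06, Cd82 to 0.02 and Cd37 to -0.49. Over the 7 members, spleen 4 was the highest sample for Cd9, Cd81, Cd82 and Cd151. Blood 1 was the lowest for Cd9, Cd37 and Cd151, and blood 2 for Cd63, Cd81 and Cd82.

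Set against all genes, 4 members were higher and 3 lower in spleen with a median difference of 0.59, and all 18266 tested genes had a median of -0.01. By limma with Benjamini-Hochberg adjustment, 0 of 18266 genes (0%) passed an adjusted p of 0.05, while 992 genes (5.43%) had an unadjusted p under 0.05, 3.09% with higher and 2.34% with lower values in spleen. A difference of at least 1 on the log2 scale was found for 2 members (Cd63 and Cd81), both higher in spleen, and for 3.22% of all genes (2% higher and 1.22% lower). The tissues did not overlap for 1 member (Cd63, higher in spleen) and for 3.3% of all genes (1.88% with all 4 spleen values above and 1.41% with all 4 below). Nothing is read from these shares, because the members were chosen with the same values known.

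The scanner files gave another picture of several members where the 3 other blood arrays entered. These values are log2 of the background-subtracted signal minus the 75th percentile of each array. Cd81 was -0.86, 0.20, -1.35 and 0.94 in spleen samples 1 to 4, against -3.0 in blood 4 and 2.55, 0.22 and 2.80 in the files of blood 1, blood 2 and blood 3. The only blood array shared with the table was thus the lowest of the 8, and 2 of the 3 others were above every spleen array. Cd63 was 0.90, 1.26, 2.24 and 1.47 in spleen samples 1 to 4, against -1.10 in blood 4 and 3.25, 2.59 and -0.32 in the other blood files. Blood 4 was again the lowest of all, and the files of blood 1 and blood 2 were the highest.

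With all 8 scanner files the difference of Cd63 was 0.36, and that of Cd81 turned to -0.91. With the 5 arrays shared by both sources it was 2.57 for Cd63 and 2.74 for Cd81 in the scanner files, and 2.08 and 1.84 in the table, but there the blood side is a single array. Some marker lists described below also moved with the 3 other blood files. With all 8 scanner files the median differences were -2.07 for B cells, -2.38 for NK cells and 1.04 for monocytes. On the 5 shared scanner arrays they were -0.15, -0.19 and -0.07. The platelet (-0.39 against -0.47) and neutrophil (2.46 against 2.67) medians moved less. Which cells the 3 other arrays hold was not tested. Cd9 and Cd37 were brighter in each of the 3 other blood files than in any spleen file. Cd9 was 4.06 to 4.84 there, against 2.20 to 3.26 in spleen, and its difference turned to -1.27. The first probe of Cd37 was 3.09 to 4.37 in these files, against 1.75 to 2.71 in spleen, and its difference was -1.20. The signs of Cd82 (-0.15), Cd53 (0.34) and Cd151 (0.63) also turned. In the table the differences of Cd53 and Cd151 lay near 0. Their signs turned there in 4 and 6 of the 8 settings with 1 array left out. Spleen 4 and blood 4 shared a slide, and within it the table gave 2.19 for Cd63, 2.88 for Cd81, 1.84 for Cd82, 0.68 for Cd9, 0.35 for Cd151, -0.01 for Cd53 and -0.48 for Cd37. The slides of the table's other blood columns are not known from the sources used here.

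**Figure D2:**
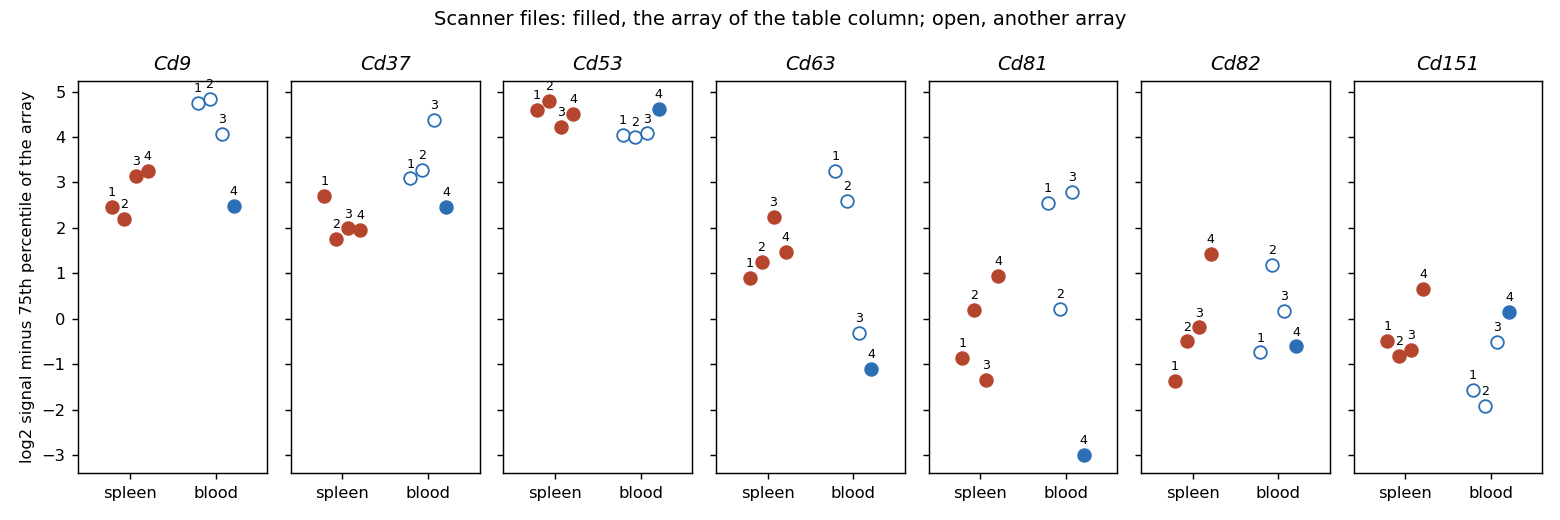
Log2 background-subtracted scanner signal minus the 75th percentile of the array for the 7 tetraspanins, with spleen left and blood right and points numbered by sample. Filled points are the 5 arrays that the table also holds and open points the 3 blood files that hold other arrays. For Cd63 and Cd81 the filled blood point is the lowest, at -1.10 and -3.0, while open points reach 3.25 and 2.80.

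**Figure D3:**
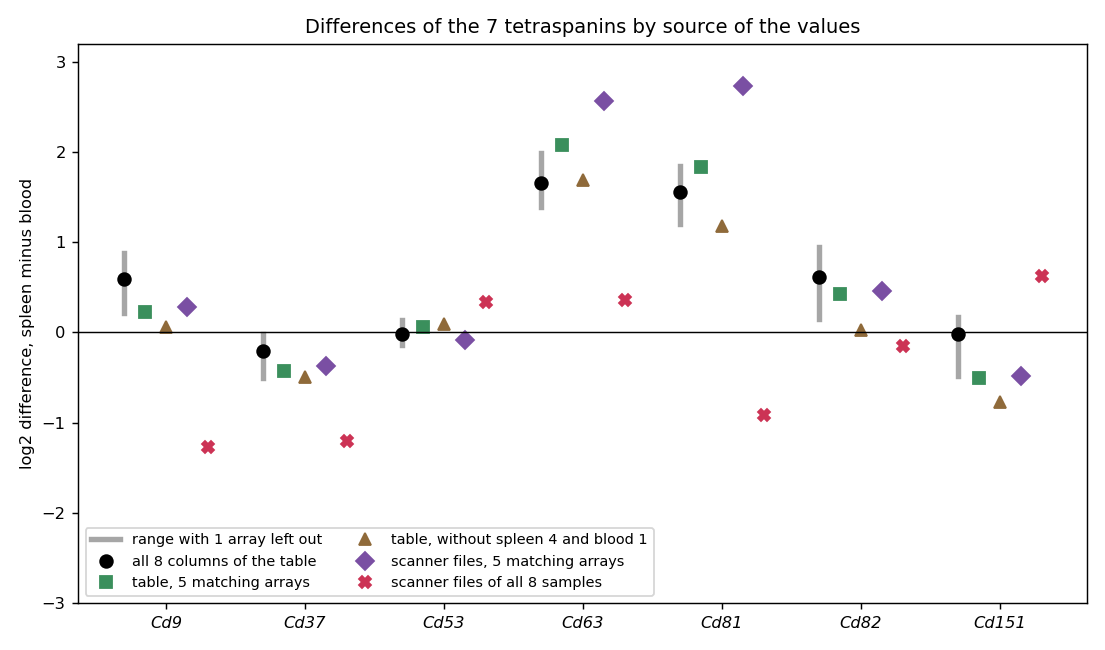
Log2 difference of each tetraspanin, spleen minus blood, by the source of the values. Grey bars span the table's values with 1 array left out, and symbols mark all 8 table columns, the 5 matching arrays in the table and in the scanner files, the table without spleen 4 and blood 1, and all 8 scanner files. Cd63 and Cd81 lie above 0 in every setting drawn except Cd81 with all 8 scanner files, at -0.91.

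Of the wider tetraspanin family, 24 of 31 listed genes were tested, 7 of them the members. The 17 others split into 8 higher and 9 lower in spleen around a median of -0.0009. By limma 0 of them had an adjusted or unadjusted p under 0.05. Of all genes 0% had the former and 5.43% the latter. Of these 17, 15 were above the background level on every array with a value. The largest difference was that of Tspan33, which guides the protease ADAM10 to the cell surface. It had 9.78, 9.26, 9.30 and 10.93 in spleen samples 1 to 4, against 7.82, 9.79, 8.99 and 8.77 in blood samples 1 to 4. As for Cd151, blood 1 was the lowest and spleen 4 the highest, and the difference was 0.97 ± 0.48 (SE, adjusted p = 0.941), or 0.60 without spleen 4 and 0.63 without blood 1. Tspan4, a tetraspanin of migrasomes, the vesicles that moving cells leave behind, differed by 0.97 ± 1.07 (adjusted p = 1). It was 11.88 in spleen 3 but 7.67 and 7.37 in spleen 2 and 4, with no value in spleen 1, against 7.0 to 9.48 in blood, and without spleen 3 its difference turned to -0.49. Tspan14 and Tspan17, which are among the other tetraspanins that carry ADAM10 but not all of them, differed by -0.16 ± 0.23 and -0.04 ± 0.33 (SE).

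**Figure D4:**
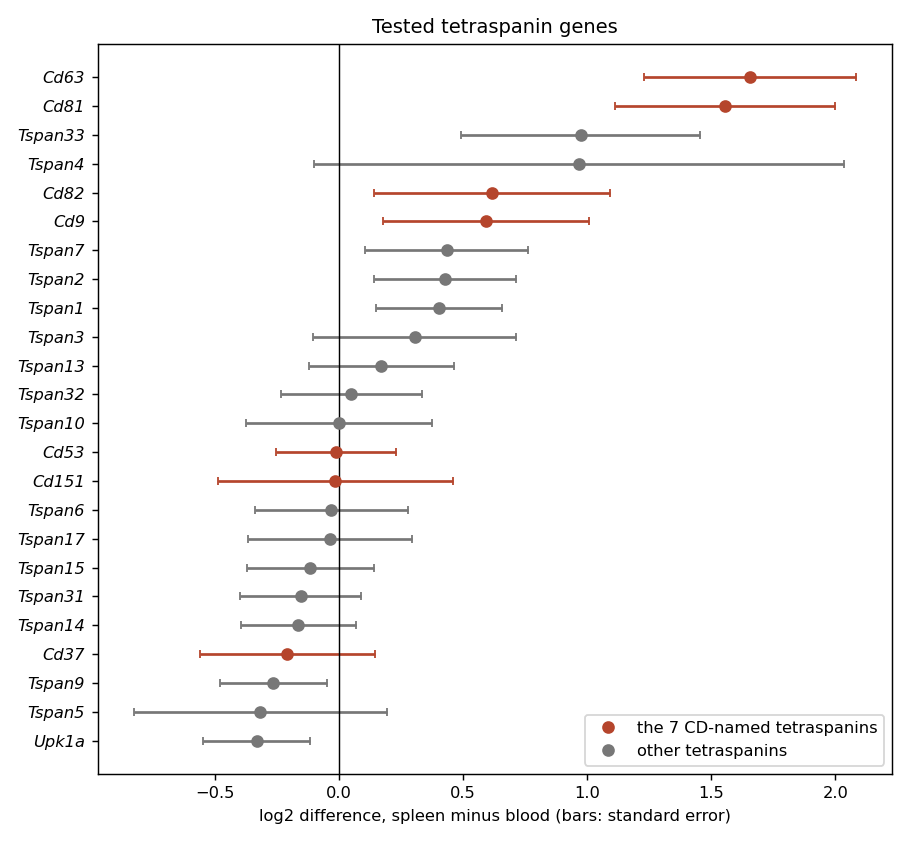
Log2 differences, spleen minus blood, of the 24 tested tetraspanin genes, with bars of 1 standard error. The 7 CD-named genes are in red and the others in grey. Cd63 and Cd81 lie at 1.66 and 1.56, above the other tetraspanins, of which Tspan33 is the highest at 0.97.

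No known partner of the tetraspanins had an adjusted p under 0.05 by limma, but neither had any other of the 18266 tested genes. Surface partners, 20 of them tested, split into 8 higher and 12 lower in spleen (median -0.05), and 0 had an unadjusted p under 0.05, as 5.43% of all genes did. The widest were Sdc4, which encodes the heparan sulphate carrier syndecan 4, at 0.94 ± 0.43 (SE, 0.54 without spleen 4), and Itga6, the laminin-binding integrin partner of CD151, at -0.57 ± 0.29. The 20 tested genes of multivesicular bodies, exosomes and lysosomes split into 6 higher and 14 lower (median -0.14). That median lay near 0 and turned to 0.01 with each probe on its own, within the shared slide and without spleen 4 and blood 1. One of them, Pdcd6ip, had an unadjusted p under 0.05, a share near that of all genes (2.34% in this direction and 5.43% in both). It is the gene of the exosome-forming protein ALIX, at 10.86 ± 0.22 in spleen and 11.36 ± 0.24 in blood (SD, n = 4 each), with all 4 spleen values below all 4 blood values, as for 1.41% of all genes (difference -0.50 ± 0.22, SE, limma adjusted p = 0.892). Hps4, needed to make lysosome-related organelles, differed by -1.10 ± 0.49 (SE, adjusted p = 0.921) and by -0.63 without blood 2, and Ap3d1, a subunit of the adaptor that sorts CD63 to lysosomes, by -0.66 ± 0.54 and by -0.11 without blood 4. The 11 tested signalling partners split into 6 higher and 5 lower (median 0.04). Gna11, a G protein subunit, differed by 0.67 ± 0.50 (0.31 without blood 1), and Grb2, an adaptor of receptor signalling, by 0.55 ± 0.31 (0.32 without spleen 1).

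Markers of other cell types moved along the same arrays as some members, and their part in these differences was not tested. Of 20 platelet and megakaryocyte genes, 15 were lower in spleen, with list medians of 8.23 to 8.40 in spleen and 8.37 to 9.69 in blood, and 5 of them had an unadjusted p under 0.05 in that direction, as 2.34% of all genes did. Their summed linear signal was 57877 to 91339 in spleen and 79973 to 93716 in blood. Most of that sum came from the bright gene Itgb3, at 15.57 to 16.32 in spleen and 15.94 to 16.38 in blood. By the median the lowest blood sample was blood 1, also the lowest sample for Cd9, Cd37 and Cd151, but its summed signal of 93540 was not the lowest in blood. Its low place was not particular to platelet genes, since blood 1 also had the lowest median of the 17 other tetraspanins. Of the 19 platelet genes with 4 blood values, blood 1 was the lowest blood sample for 9 and the highest for 4, among them Itgb3, Itga2b and Gp1ba, which encode platelet adhesion receptors. Pf4, the platelet chemokine, was 6.39 in blood 1, below the background level, against 10.07 to 10.64 in the other blood samples. Its difference was -2.66 ± 0.82 (SE), but on the spleen side Pf4 reached the background level on only 1 array. Gng11, a G protein subunit of platelets, differed by -1.81 ± 0.32.

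Of 12 tested B cell genes, 9 were higher in spleen. Spleen 4, the highest sample for Cd9, Cd81, Cd82 and Cd151, also had the highest list median. It was 8.77, against 7.16 to 7.84 in the other spleen samples and 7.43 to 7.89 in blood. This was not particular to B cells, since spleen 4 also had the highest median of the T cell, NK cell, neutrophil and erythroid lists. The summed B cell signal was 2260 to 7031 in spleen and 2988 to 3908 in blood. The defining markers Cd79a, Ebf1 and Cr2 did not pass the filter on dim probes. Cd79b differed by 0.80 ± 0.38 (SE, no value in spleen 2) and Bank1 by 0.72 ± 0.42 (0.38 without spleen 4). Red pulp macrophage genes were higher in spleen for 8 of 11, with medians of 8.91 to 9.98 in spleen and 8.22 to 8.52 in blood, without overlap. Their summed signal was 17149 to 21903 in spleen and 15336 to 19806 in blood. Most of that sum came from Adgre1 and Hmox1, which differed by 0.0002 and -0.03. Vcam1, an adhesion molecule of these macrophages, was 8.94 ± 0.78 in spleen and 6.63 ± 0.25 in blood (SD, n = 4 each). Slc40a1, the iron exporter ferroportin, differed by 2.17 ± 0.34 (SE), with no value in spleen 2. On the blood side Vcam1 and Slc40a1 each reached the background level on 1 array. Axl, of the same list, went the other way at -0.54 ± 0.23 (SE).

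Neutrophil and granule genes were higher in spleen for 13 of 14, with medians of 9.01 to 9.59 in spleen and 6.77 to 8.23 in blood and summed signals of 44853 to 115096 and 4147 to 7505. They were led by S100a8, a chain of calprotectin, and Camp, the gene of cathelicidin, each 5.57 higher (limma adjusted p = 0.0536 for both). Blood 2, the lowest sample for Cd63, Cd81 and Cd82, was also the lowest for this list by the median. The same held for the T cell, NK cell and surface partner lists. Of 9 dendritic cell genes, 4 were higher and 5 lower, with summed signals of 9817 to 14216 in spleen and 12085 to 13971 in blood. Itgax, the gene of CD11c, was 9.20 ± 0.76 in spleen and 7.39 ± 0.81 in blood (SD, n = 4 each), and Ccr9, a homing receptor, differed by 0.65 ± 0.56 (SE, 0.14 without spleen 2). The T cell list had 8 of 11 higher (median 0.18), the NK cell list 3 of 3 (0.07) and the erythroid list 1 of 4 (-0.27). Their widest genes were Cd3e (1.0), Tcf7 (0.80), Nkg7 (0.57), Klra8 (0.07), Alas2 (0.87) and Hba-a1 (-0.44). Single arrays carried some of these differences, since Cd3e came to 0.37 and Nkg7 to 0.20 without spleen 3, Tcf7 to 0.49 without spleen 2, Klra8 to -0.01 without spleen 1, and Hba-a1 turned to 0.41 without spleen 2. Within the monocyte list, 3 were higher and 6 lower, and the widest were Spn (0.68) and Ccr2 (-0.41), neither with a value in spleen 3.

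**Figure D5:**
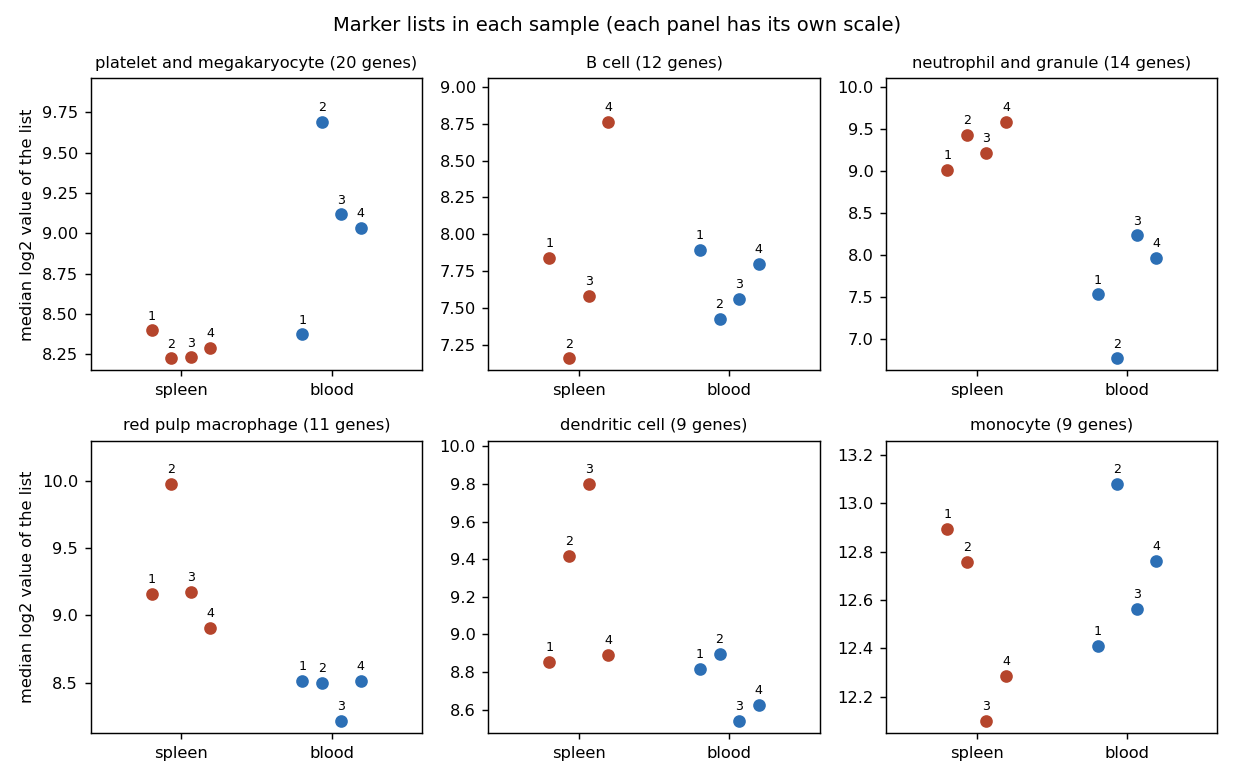
Median log2 value of the tested genes of 6 marker lists in each sample, spleen left and blood right, with points numbered by sample and a separate scale in each panel. Spleen lies above blood without overlap for the neutrophil (9.01 to 9.59 against 6.77 to 8.23) and red pulp macrophage lists. Blood 1 is the lowest blood sample of the platelet list, at 8.37, and spleen 4 is the highest of the B cell list, at 8.77.

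The likeness of 2 profiles was measured as the root mean square gap between their log2 values over the 8 samples, after each gene's mean was taken off. This is a description over arrays of 1 normalized table, and it says nothing of shared function. Among the members, Cd9 and Cd151 lay closest at 0.48, followed by Cd37 and Cd151 at 0.49, and Cd63 and Cd151 lay farthest apart at 1.23. Cd63 and Cd81, the pair with the widest difference, were 0.71 apart, and Cd81 and Cd82, both highest in spleen 4, were 0.64 apart. Over all 16387 genes with 8 values, the gene closest to Cd81 was Itgax at 0.33, where the median gene was 1.09 away. For Cd82 they were Ccl5, a chemokine gene, at 0.22 and 2610301G19Rik at 0.27 (median 0.87). For Cd9 the nearest were Tmcc3 and Msh6 at 0.17 and 0.19 (median 0.79), and for Cd37 Prpf4b and Atf7ip at 0.20 and 0.22 (median 0.65). The named gene nearest to Cd151 was Ncoa1 at 0.26 (median 0.81), and to Cd63 AI597479 at 0.36 (median 1.12). Cd53 was left out because its 8 values spanned less than 1.

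Promoters of Cd63 and Cd81 are shown because these genes had the widest difference between the tissues, and that of Cd53 because it was the steadiest. Each is the 250 bases before the gene's start in RefSeq's table for GRCm38.p6, 5′ to 3′ on the gene's strand. Capitals mark GGGCGG, the GC box bound by Sp1, and AGGAAG, a core read by Ets factors such as PU.1, on either strand. These motifs do not overlap each other in the windows shown. The windows are chr10:128909095-128909344 (plus strand) for Cd63, chr7:143052500-143052749 (plus strand) for Cd81 and chr3:106790150-106790399 (minus strand) for Cd53.
Cd63 promoter: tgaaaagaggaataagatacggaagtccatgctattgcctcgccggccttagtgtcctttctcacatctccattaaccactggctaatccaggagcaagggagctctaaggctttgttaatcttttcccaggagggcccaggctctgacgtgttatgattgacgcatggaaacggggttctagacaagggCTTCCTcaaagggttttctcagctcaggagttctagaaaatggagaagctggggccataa
Cd81 promoter: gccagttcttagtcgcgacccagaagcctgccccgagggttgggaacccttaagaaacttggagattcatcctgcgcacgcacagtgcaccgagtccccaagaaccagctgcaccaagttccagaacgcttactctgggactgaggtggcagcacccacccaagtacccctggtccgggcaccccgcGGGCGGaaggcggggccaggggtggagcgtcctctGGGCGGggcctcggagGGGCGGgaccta
Cd53 promoter: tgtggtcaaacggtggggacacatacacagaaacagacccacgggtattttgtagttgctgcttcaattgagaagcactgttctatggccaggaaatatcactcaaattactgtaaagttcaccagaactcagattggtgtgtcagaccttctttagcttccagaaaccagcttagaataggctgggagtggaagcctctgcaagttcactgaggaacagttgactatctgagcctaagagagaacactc

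The pair with the widest difference did not share these letters. Cd81 held 3 GC boxes and no AGGAAG, Cd63 held 1 AGGAAG and no GC box, and Cd53 held neither. Of all 32851 promoter windows of this length, 32.7% held GGGCGG, 29.5% AGGAAG and 12.4% TATAAA on either strand. TATAAA was in none of the 11 windows of the 7 members. Cd9 held 2 GC boxes and 1 AGGAAG, Cd37 held 1 of each, and Cd82 and Cd151 have 4 and 2 annotated starts with 0 to 2 of either. The windows had 2 CG pairs for Cd53, 6 for Cd63, 8 for Cd37 and 16 for Cd9 and Cd81. A match is a description of letters and not of binding.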

How the data were processed

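Ly-6C-high monocytes of 4 spleen and 4 blood samples were measured on 1-colour arrays. The authors deposited a table of log2 values. Limma appears, without a version, in the submitters' processing notes, and the normalization is not given in the sources used here. All 8 columns had a median of 7.31. The spot intensity values were deposited as scanner output, written by Agilent Feature Extraction (9.5.1.1) with probe positions on mm7, per the file headers. From the table, probes were kept when they reached 6.8 on at least 4 of 8 arrays with at least 3 values per tissue, and the brightest probe stood for a gene. That level is the lowest from which at least 95% of probes in each step of 0.1 were well above background by the scanner's flag, in the 5 matching arrays. Accessions were matched to RefSeq's mouse table, which named 22951 of 41174 probes (55.7%), and the others kept the file's name. Spleen was compared with blood by lmFit and eBayes (limma 3.58.1, R 4.3.3, data.table version 1.17.8), unpaired, with Benjamini-Hochberg adjustment at 0.05, and Python 3.11.15, pandas 2.3.3 and numpy 2.4.6 made the summaries. The fit was tested on simulated data. No label ties the numbers to mice, and they were not taken as pairs. Alternatives were other filters, probe rules, variance models, a replicate block, scanner files, the slide and leaving out arrays. The members, gene lists (tetraspanin family, partners, multivesicular bodies, signalling, and markers of platelets, B, T and NK cells, neutrophils, red pulp macrophages, dendritic cells, erythroid cells and monocytes), tests and motifs were chosen with earlier results of these data known. Named genes are all members, genes of the family and partner lists with an unadjusted p under 0.05 or among the 2 widest differences, the 2 widest of each marker list, and the 2 nearest profiles of each member, of which those without a gene name are left out. Tspan14, Tspan17, Itgam, Itgb3, Itga2b, Gp1ba, Adgre1, Hmox1 and Axl were added after their values were seen. The number of arrays limits the precision.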

Additional observations from a re-analysis of the deposited data

Results flagged for a closer look

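In 4 of 69 groups of 4 values, 1 sample stood apart from the other 3 by a gap above the 95% critical value of Dixon's test, where chance flags about 1 in 20 groups. Cd151 was 7.42 in blood 1, against 9.17 to 9.39 in the other blood samples. Pf4, the platelet chemokine, was 6.39 in the same blood sample, against 10.07 to 10.64 in the others. Camp was 6.34 in blood 2, against 9.37 to 9.87, and Grb2 was 11.40 in blood 4, against 10.52 to 10.60.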

How the results depend on the processing

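The number of genes with an adjusted p under 0.05 by limma, 0 of 18266, was 8 with an intensity trend, 9 with array weights, 7 with the mean over probes, 1 with the background level required on all 8 arrays, and 4, 1 and 4 from all 8 scanner files scaled to the 75th percentile, with the slide as a block, and after normexp. It ranged from 0 to 3 when 1 array was left out. With the replicate block it was 13 as a random effect (correlation 0.21) and 1 as a fixed effect. The members' differences could not move with this block, because each member has all 8 values in a balanced layout. Only their standard errors and p-values could change. Deviations from the tissue means correlated by 0.090 to 0.141 for same-numbered samples and by -0.116 to 0.034 for others, so every sample correlated best with its own number, a hint from the data and not from the design. The 992 genes with an unadjusted p under 0.05 by limma became 1701, 1234 and 1898 in these 3 scanner settings, in the same order. The scanner settings tested 20937 genes and not 18266. The members' median of 0.59 ranged from 0.14 (without spleen 4) to 0.70 with 1 array left out, was 0.057 without both spleen 4 and blood 1 (chosen after seeing the data), and turned to -0.15, -0.035 and -0.13 in the 3 scanner settings, in the order above.

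In the same 3 settings the list medians were 0.26, 0.33 and 0.20 for multivesicular bodies, exosomes and lysosomes, -2.07, -1.58 and -1.80 for B cells, -2.38, -2.04 and -1.65 for NK cells, 2.46, 2.63 and 1.53 for neutrophils, and 1.04, 1.02 and 0.997 for monocytes. Scaled to the 75th percentile and with the slide block they were 1.06 and 0.87 for red pulp macrophages and -0.85 and -0.81 for erythroid cells, and the T cell median was -0.15 by the first. The 5 matching scanner arrays gave -0.19 for NK cells, 2.67 for neutrophils and -0.68 for erythroid cells. Within the slide of spleen 4 and blood 4 the T cell median was 0.45 and the erythroid 0.24, which ranged from -0.35 to 0.086 with 1 array left out. Each probe on its own gave 0.15 for dendritic cells. The slide could be a block only for the scanner files. All 8 scanner files differ from the table in 3 blood arrays as well as in processing, and on the 5 shared arrays the sources gave the same sign for 6 of 7 members, all but Cd53.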
